A study of Mus musculus with 13 samples.

Results

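The 39 genes described here encode subunits of the proteasome and their close namesakes, measured in mouse livers that lack the endoplasmic reticulum protein SEL1L in hepatocytes and in wild-type livers. They are all genes whose array symbol begins with Psma, Psmb, Psmc or Psmd followed by a number, out of 18820 genes that the array reports with a single symbol. Where a gene had more than 1 array feature, the feature with the highest mean over all livers was used, without regard to group. Psma4, an alpha subunit, sits on a feature annotated with more than 1 gene and is not among the members. By role, 7 members belong to the alpha ring of the 20S core, 7 to its constitutive beta ring, 3 to the immunoproteasome, 1 to the thymoproteasome, 9 to the base and 8 to the lid of the 19S regulatory particle, and 3 are chaperones that assemble the base. Psmc3ip matches the naming rule but encodes a meiotic recombination factor, not a subunit.

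The proteasome degrades proteins tagged with ubiquitin. Its 20S core is a stack of alpha and beta rings with the proteolytic sites inside, and the 19S particle binds ubiquitin (lid and base), unfolds substrates with its ATPases (base) and removes the ubiquitin (lid). SEL1L, together with the ubiquitin ligase HRD1, forms a complex that acts in endoplasmic reticulum-associated degradation (ERAD), which delivers misfolded proteins to the cytosolic proteasome. Interferon exchanges the 3 catalytic beta subunits PSMB5, PSMB6 and PSMB7 for PSMB8, PSMB9 and PSMB10, and the resulting immunoproteasome is known for producing peptides for major histocompatibility complex (MHC) class I. It is abundant in immune cells and inducible in hepatocytes.

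The study hybridised total liver RNA from 13 C57BL/6J mice, 1 liver per array, to an Affymetrix whole-transcript array. The Sel1L-deficient mice, called LiSel1lKO in the labels, carried floxed Sel1L alleles and a Cre transgene driven by the albumin promoter, so that deletion is aimed at hepatocytes. Whether other liver cells keep the gene was not measured here. There were 3 such livers at 9 weeks of age and 4 at 3 weeks, against 3 wild-type livers at each age; the labels do not say whether wild-type mice carried the floxed alleles or the Cre transgene. All mice had been fasted for some hours in the morning. Values are log2 expression after robust multi-array averaging (RMA), so a difference of 1 is a 2-fold change, and levels of different genes on this array are not comparable with each other.

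Array medians lay between 3.72 and 3.81, and the hepatocyte marker list averaged 12.29 to 12.50 per liver, with Alb, which encodes albumin, at 13.25 to 13.37. The signal of Sel1l was 7.90, 7.54 and 7.72 in Sel1L-deficient livers at 9 weeks, against 8.78, 8.70 and 8.72 in wild-type livers. At 3 weeks it was 8.42, 7.90, 7.20 and 7.10 in Sel1L-deficient livers, against 8.94, 8.77 and 8.85 in wild-type livers. Every Sel1L-deficient liver was below every wild-type liver of its age, and replicate 1 at 3 weeks was the closest to them. The log2 difference was -1.02 ± 0.28 (SE) at 9 weeks (limma, adjusted p = 0.108) and -1.21 ± 0.26 at 3 weeks (adjusted p = 0.391). Where the probes lie relative to the deleted exon is not known here.

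The 3 immunoproteasome subunits had the lowest differences of all members in Sel1L-deficient livers at 9 weeks, while the constitutive subunits stayed between -0.22 and 0.34 on the log2 scale. Psmb8 was at 0.575 times, Psmb9 at 0.642 times and Psmb10 at 0.779 times the wild-type level. None of these differences passed the adjusted threshold. The plot of all members by liver shows Psmb8 and Psmb9 highest in wild-type replicates 2 and 3 of 9 weeks, and Psmb10 high in replicate 2 alone. The order of the members depended on replicate 2 for Psmb10: without it Psmb8 and Psmb9 remained the lowest, while Psmb10, at -0.17, lay above Psmb7 at -0.32 and Psma2 at -0.19.

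**Figure D1:**
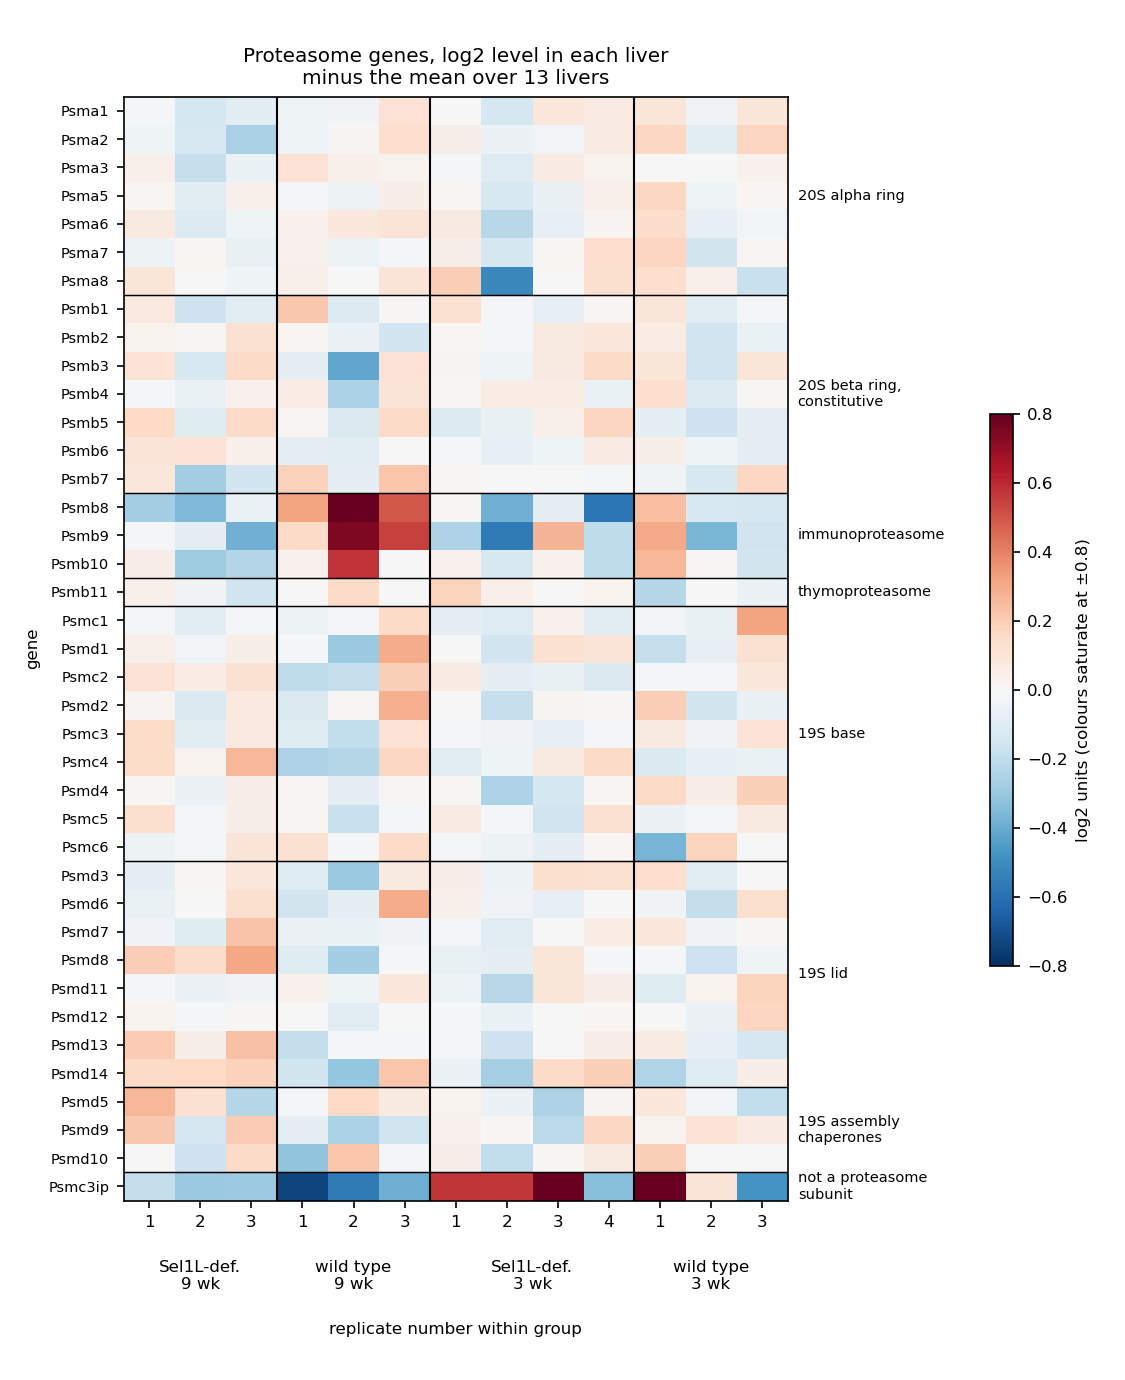
Heat map of the 39 members (rows, grouped by role) in 13 livers (columns, by group and replicate number); the colour is the liver's log2 level minus the gene's mean over all 13 livers. In wild-type livers at 9 weeks Psmb8 and Psmb9 are darkest in replicates 2 and 3, and Psmb10 is dark red in replicate 2 alone. The constitutive subunits are paler there, apart from replicate 2 in Psmb3. Psma8 is darkest in Sel1L-deficient replicate 2 of 3 weeks. Psmc3ip, which is not a subunit, varies widely.

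Psmb8, which supplies the chymotrypsin-like site in place of PSMB5, had log2 values of 6.93, 6.84 and 7.15 in Sel1L-deficient livers at 9 weeks, against 7.51, 8.11 and 7.69 in wild-type livers. All 3 Sel1L-deficient livers lay below all 3 wild-type livers. The difference was -0.80 ± 0.19 (SE; 95% interval -1.21 to -0.38; limma, adjusted p = 0.0672 over 35556 features). Under alternative settings the adjusted p ran from 0.0326 to 0.235, and it was under the threshold with array weights (0.0474), with only the 21218 features of 1 symbol tested (0.0326) and with only the brighter features tested (0.0415).

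Psmb9, which replaces the caspase-like subunit PSMB6, had values of 6.19, 6.13 and 5.83 in Sel1L-deficient livers at 9 weeks, against 6.36, 6.96 and 6.75 in wild-type livers. The groups did not overlap, but the highest Sel1L-deficient liver was close to wild-type replicate 1. The difference was -0.64 ± 0.23 (95% interval -1.15 to -0.13; limma, adjusted p = 0.229). Psmb10, which replaces the trypsin-like subunit PSMB7, had values of 7.40, 7.07 and 7.12 in Sel1L-deficient livers, against 7.38, 7.93 and 7.36 in wild-type livers. Here the groups overlapped, and the difference was -0.36 ± 0.17 (limma, adjusted p = 0.364).

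Wild-type replicate 2 was the highest of all 13 livers in each of the 3 genes. Without it, the differences at 9 weeks were -0.63 for Psmb8 (adjusted p = 0.190), -0.51 for Psmb9 (adjusted p = 0.465) and -0.17 for Psmb10 (adjusted p = 0.702). The arrays' labels carry a position code with the number 5 or 7, which splits both genotypes. Among arrays coded 5 (2 Sel1L-deficient, 1 wild-type) the difference in Psmb8 was -1.07, and among those coded 7 (1 Sel1L-deficient, 2 wild-type) it was -0.76. For Psmb9 these values were -0.95 and -0.42, and for Psmb10 -0.67 and -0.30. All 6 were below 0, without a test at this size.

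The constitutive partners Psmb5 and Psmb6 lay close to 0 or slightly above it, and Psmb7 lay below 0. Psmb5, the chymotrypsin-like subunit, had values of 7.20, 6.94 and 7.20 in Sel1L-deficient livers at 9 weeks, against 7.06, 6.93 and 7.19 in wild-type livers. The groups overlapped and the difference was 0.05 ± 0.10 (95% interval -0.18 to 0.28). Psmb6 had values of 9.93, 9.95 and 9.87 in Sel1L-deficient livers, against 9.76, 9.74 and 9.83 in wild-type livers. It was higher in every Sel1L-deficient liver, by a small step of 0.14 ± 0.07 (limma, adjusted p = 0.402). Psmb7 had values of 9.08, 8.71 and 8.83 in Sel1L-deficient livers, against 9.17, 8.91 and 9.21 in wild-type livers. These groups overlapped, with a difference of -0.22 ± 0.11 (limma, adjusted p = 0.421). Without wild-type replicate 2 the differences were -0.012 for Psmb5, 0.12 for Psmb6 and -0.32 for Psmb7, so that Psmb7 then differed by more than Psmb10.

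Within each liver, the log2 value of an immunosubunit can be set against that of its partner, as a description that is not a ratio of amounts. At 9 weeks Psmb8 minus Psmb5 averaged -0.14 ± 0.12 in Sel1L-deficient livers and 0.71 ± 0.41 in wild-type livers (SD, n = 3 each). Psmb9 minus Psmb6 averaged -3.87 ± 0.16 in Sel1L-deficient livers and -3.08 ± 0.31 in wild-type livers. Psmb10 minus Psmb7 averaged -1.68 ± 0.04 in Sel1L-deficient livers and -1.54 ± 0.48 in wild-type livers. The ranges of the 2 groups were apart for the first 2 pairs and overlapped for the third.

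**Figure D2:**
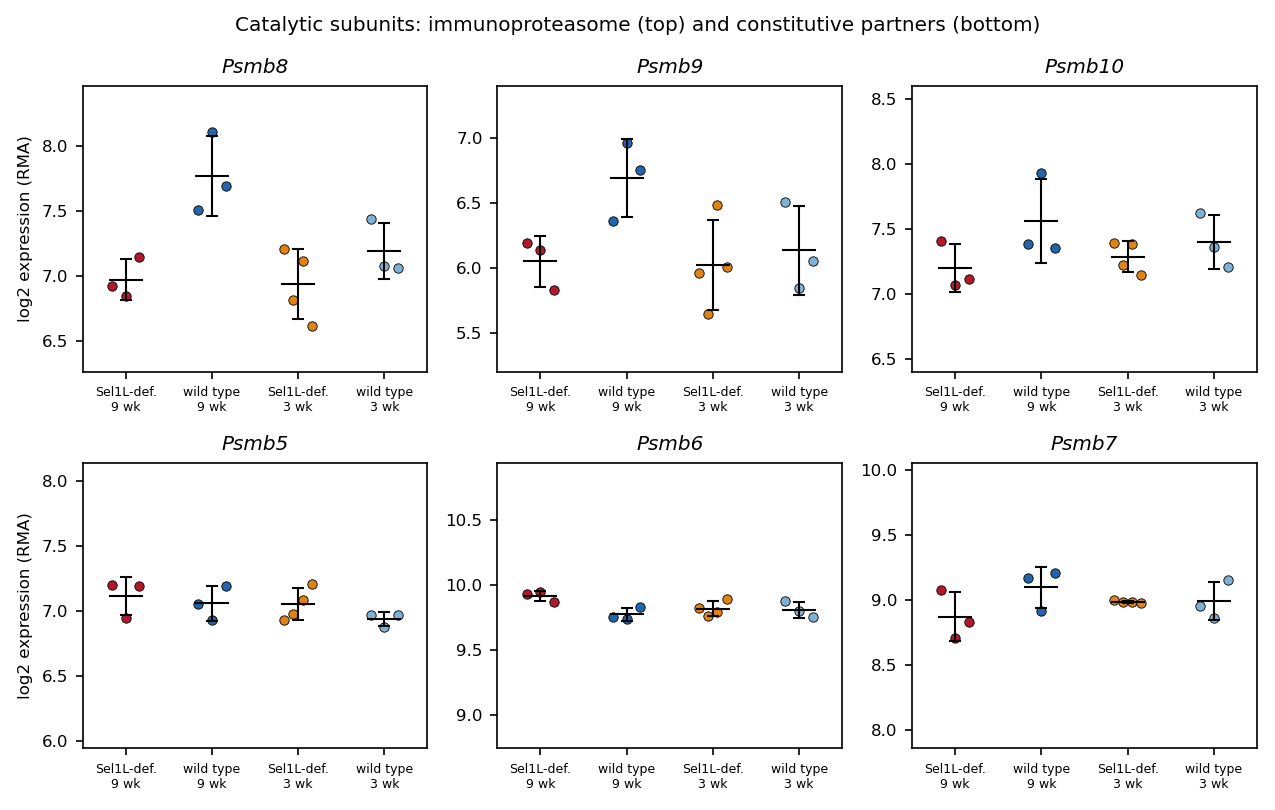
Log2 expression (RMA) of the 3 immunoproteasome subunits (top) and the 3 constitutive catalytic subunits they replace (bottom) in each liver of the 4 groups; points are livers, and bars are means with SD (n = 3, or 4 for Sel1L-deficient livers at 3 weeks), on axes of equal height. Psmb8 and Psmb9 are high in wild-type livers at 9 weeks and lower in the Sel1L-deficient livers of that age, and the group means in the bottom row lie closer together.

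At 3 weeks the immunosubunits overlapped between the genotypes. Psmb8 had values of 7.21, 6.81, 7.12 and 6.62 in Sel1L-deficient livers, against 7.44, 7.08 and 7.06 in wild-type livers, a difference of -0.25 ± 0.18 (limma, adjusted p = 0.784). Psmb9 had values of 5.96, 5.64, 6.48 and 6.00 in Sel1L-deficient livers, against 6.51, 5.85 and 6.05 in wild-type livers, a difference of -0.11 ± 0.22 (adjusted p = 0.934). Psmb10 had values of 7.39, 7.22, 7.39 and 7.15 in Sel1L-deficient livers, against 7.62, 7.36 and 7.21 in wild-type livers, a difference of -0.11 ± 0.15 (adjusted p = 0.904). The Psmb8 and Psmb9 differences had opposite signs in the 2 sets of arrays, -0.54 and -0.46 among those coded 5 and 0.09 and 0.38 among those coded 7. Sel1L-deficient replicate 3 was the highest of its group in Psmb9.

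The difference between the effects at 9 and at 3 weeks was tested directly. It was -0.54 ± 0.26 for Psmb8 (limma, adjusted p = 0.534), -0.53 ± 0.32 for Psmb9 (adjusted p = 0.631) and -0.25 ± 0.23 for Psmb10 (adjusted p = 0.768). So a dependence of the effect on age was not shown for any of them. Across age, wild-type livers at 9 weeks exceeded those at 3 weeks by 0.58 ± 0.19 in Psmb8 (1.49-fold; adjusted p = 0.185), by 0.56 ± 0.23 in Psmb9 (adjusted p = 0.318) and by 0.16 ± 0.17 in Psmb10 (adjusted p = 0.752). In Sel1L-deficient livers the corresponding age differences were 0.03 ± 0.18, 0.03 ± 0.22 and -0.09 ± 0.15. The genotype and the age comparison share the wild-type livers of 9 weeks, so they are not separate evidence. Without wild-type replicate 2 of 9 weeks, the age difference in wild type was 0.41 for Psmb8 and 0.42 for Psmb9.

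Psmb8 and Psmb9 lie side by side with the peptide transporter genes Tap1 and Tap2 in the MHC class II region of chromosome 17, in the order H2-DMa, H2-DMb2, H2-DMb1, Psmb9, Tap1, Psmb8, Tap2 in the RefSeq annotation. Psmb9 is read from the minus strand and Tap1 from the plus strand, and their promoter windows share 275 of 300 bases. The windows run from 250 bases before to 50 bases after each gene start (RefSeq, GRCm38.p6), and 32 of the 39 members have at least one, 34 windows in all because Psma6 and Psmc2 have a pair each; Psma8, Psmb1, Psmb2, Psmb7, Psmc3, Psmd3 and Psmd7 have none here. Those of Psmb8 and Psmb9 and of their partners Psmb5 and Psmb6 are printed in gene orientation, because these pairs carry the contrast between immunosubunits and constitutive subunits. Capitals mark matches to 1 of 4 motifs searched on both strands: the interferon-stimulated response element (GAAA, any 2 bases, GAAA), the GAS element TTCNNNGAA, the antioxidant response element core TGACNNNGC and the CCAAT box CCAAT.
Psmb8, chr17:34197945-34198244, plus strand: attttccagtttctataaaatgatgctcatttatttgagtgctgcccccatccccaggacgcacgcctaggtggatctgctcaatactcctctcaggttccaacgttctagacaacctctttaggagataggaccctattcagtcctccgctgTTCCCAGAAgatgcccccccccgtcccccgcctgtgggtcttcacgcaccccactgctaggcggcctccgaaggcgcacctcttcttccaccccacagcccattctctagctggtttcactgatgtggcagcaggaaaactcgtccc
Psmb9, chr17:34187281-34187580, minus strand: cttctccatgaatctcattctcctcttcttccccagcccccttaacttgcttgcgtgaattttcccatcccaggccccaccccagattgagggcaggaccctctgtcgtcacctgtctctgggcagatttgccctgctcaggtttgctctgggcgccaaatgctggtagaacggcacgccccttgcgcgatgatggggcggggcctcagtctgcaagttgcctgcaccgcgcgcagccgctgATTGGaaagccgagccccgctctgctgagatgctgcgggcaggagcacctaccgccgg
Psmb5, chr14:54617946-54618245, minus strand: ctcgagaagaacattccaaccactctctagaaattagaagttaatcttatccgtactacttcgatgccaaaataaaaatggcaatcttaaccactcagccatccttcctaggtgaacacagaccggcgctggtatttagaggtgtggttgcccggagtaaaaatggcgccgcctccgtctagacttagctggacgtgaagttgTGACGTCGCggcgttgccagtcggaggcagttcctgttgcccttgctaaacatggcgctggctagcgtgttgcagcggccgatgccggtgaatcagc
Psmb6, chr11:70525107-70525406, plus strand: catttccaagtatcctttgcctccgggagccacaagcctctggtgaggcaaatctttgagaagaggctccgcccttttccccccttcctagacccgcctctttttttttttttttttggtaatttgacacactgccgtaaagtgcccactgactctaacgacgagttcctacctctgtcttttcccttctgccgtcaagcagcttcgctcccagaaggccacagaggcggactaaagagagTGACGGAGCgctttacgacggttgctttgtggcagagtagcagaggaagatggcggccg

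The Psmb8 window holds 1 GAS match, TTCCCAGAA, that begins 97 bases before the start, and the Psmb9 window holds a CCAAT box on the opposite strand, printed as ATTGG, that begins 8 bases before it. Psmb5 and Psmb6 each hold 1 antioxidant response element core, TGACGTCGC and TGACGGAGC, that begin 47 and 9 bases before the start. The element core, bound by the factors NRF1 and NRF2 that raise proteasome genes when the proteasome is impaired, was found in 5 of 34 member windows (14.7%), against 12.4% of all 32851 windows. The interferon-stimulated response element was found in 3 member windows (8.82%), against 3.44% of all, and these were Psmb3, Psmd4 and Psmd9. The GAS element was found in 2 member windows (5.88%), against 8.3% of all. The CCAAT box was found in 14 member windows (41.2%), against 37.4% of all, and the GC box GGGCGG, which is not capitalised, in 18 (52.9%), against 35.7% of all. The window of Psmb10, the remaining immunosubunit, is not printed and holds no match to any of these motifs. Such letter matches are descriptions of these windows and not shown binding sites.

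Over all members, 0 of 39 passed the adjusted threshold between genotypes at 9 weeks (limma), where 1.52% of all features did. At an unadjusted p under 0.05 there were 5 members, or 12.8%, against 13.9% of all features. They were Psmd8, Psmd13 and Psmd9, which were higher (7.86% of all features), and Psmb8 and Psmb9, which were lower (6.04% of all features). Array weights brought the number past the adjusted threshold to 2 (Psmb8 and Psmd8). The median difference of the members was 0.02, against -0.01 for all features.

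The 30 constitutive subunits, leaving out the testis form Psma8, differed between genotypes at 9 weeks by -0.22 to 0.34, with 17 above 0 and 13 below. Their 95% intervals reached from -0.48 to 0.57 at the extremes, so changes beyond 1.5-fold in either direction lay outside all of these intervals. All 7 alpha ring genes were below 0, with a median of -0.10 and a lowest value of -0.18 in Psma2. Psma2 had values of 8.09, 8.00 and 7.87 in Sel1L-deficient livers, against 8.10, 8.16 and 8.27 in wild-type livers. The highest Sel1L-deficient liver lay just below the lowest wild-type liver, and the difference did not pass (limma, adjusted p = 0.419). In the constitutive beta ring, 5 of 7 genes were above 0, with a median of 0.05.

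In the 19S particle, 6 of 9 base genes and 6 of 8 lid genes were above 0 in Sel1L-deficient livers at 9 weeks, with medians of 0.03 and 0.10. Psmd8, a lid subunit, had values of 8.65, 8.59 and 8.76 in Sel1L-deficient livers, against 8.35, 8.18 and 8.43 in wild-type livers. The groups were clearly apart, and the difference was 0.34 ± 0.09 (1.27-fold; 95% interval 0.15 to 0.54; limma, adjusted p = 0.0898). It was 0.52 among arrays coded 5 and 0.20 among those coded 7. With array weights the adjusted p was 0.0499, and over all alternatives it ran from 0.0499 to 0.288.

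Psmd13, another lid subunit, had values of 8.23, 8.07 and 8.26 in Sel1L-deficient livers at 9 weeks, against 7.84, 8.01 and 8.02 in wild-type livers. All Sel1L-deficient livers were higher, by 0.23 ± 0.09 (limma, adjusted p = 0.280). Psmd9, an assembly chaperone, had values of 7.49, 7.14 and 7.47 in Sel1L-deficient livers, against 7.20, 7.02 and 7.12 in wild-type livers, with 1 Sel1L-deficient liver inside the wild-type range and a difference of 0.26 ± 0.12 (adjusted p = 0.358). Psmc4, an ATPase of the base, differed by 0.25 ± 0.12 (adjusted p = 0.367), and its groups overlapped. Psmd14, which encodes the enzyme that removes ubiquitin from substrates, differed by 0.24 ± 0.15 (adjusted p = 0.524). Counting members whose groups did not overlap, 4 were higher (Psmd8, Psmd13, Psmb6 and Psmc3ip), against 9.89% of all features, and 3 were lower (Psmb8, Psmb9 and Psma2), against 8.52%. These are 10.3% and 7.69% of the members, near the background.

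**Figure D3:**
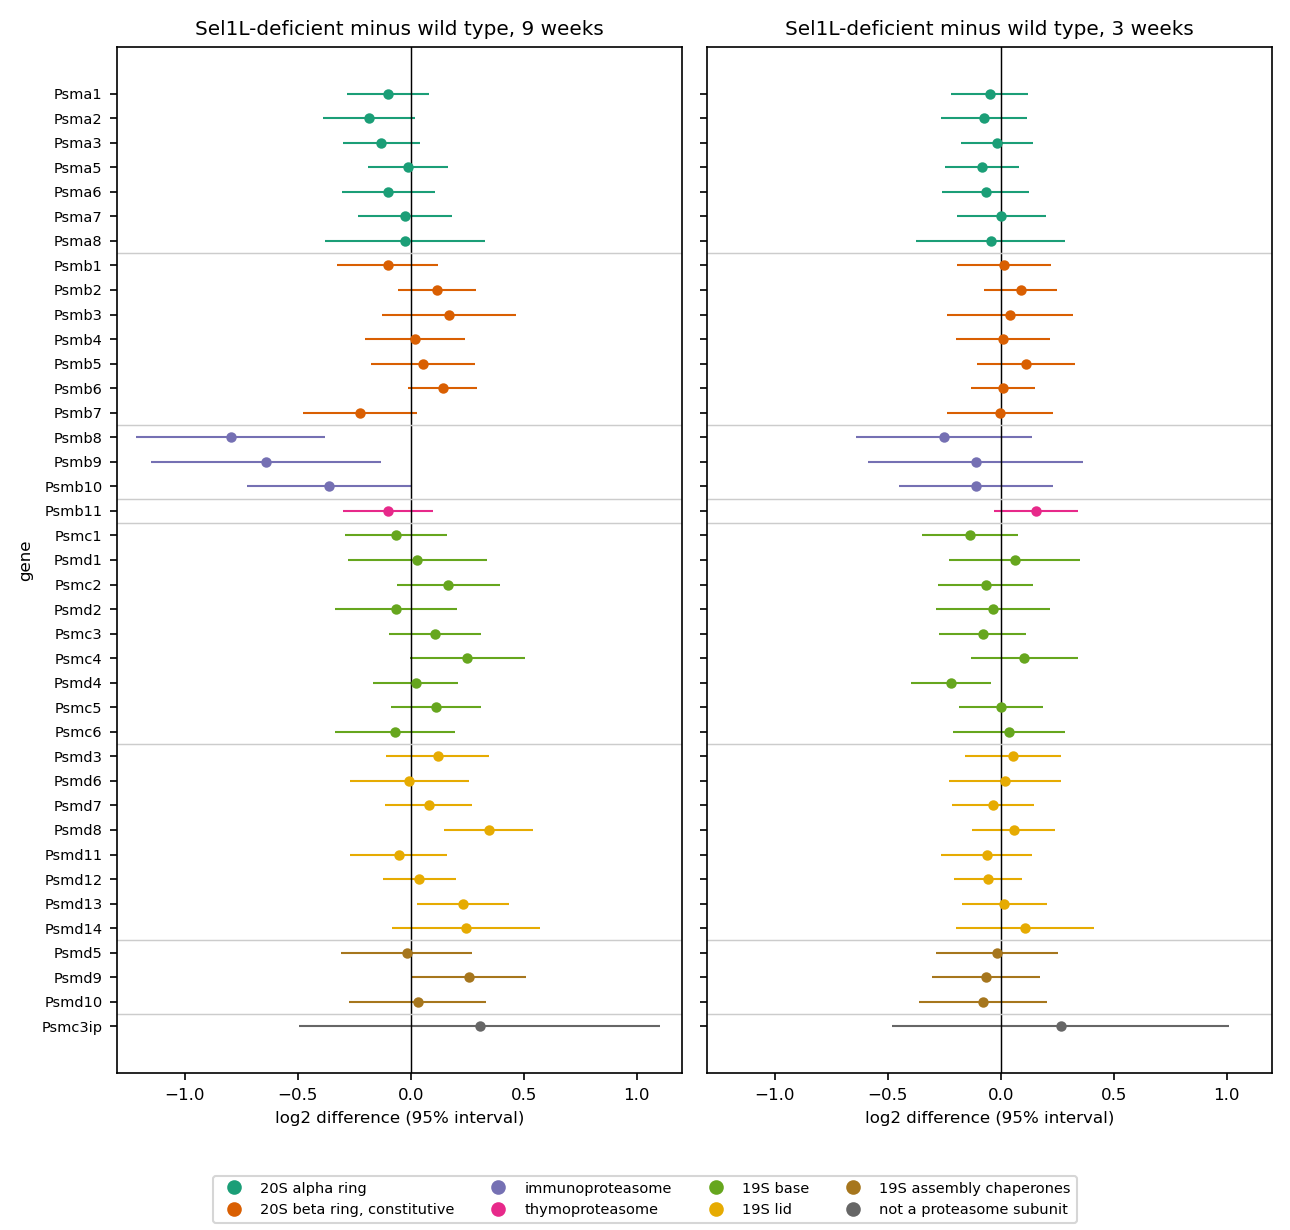
Log2 difference of Sel1L-deficient minus wild-type livers for each member, with its 95% interval from the limma fit, at 9 weeks (left) and 3 weeks (right), coloured by role. At 9 weeks the 3 immunoproteasome points lie between -0.80 and -0.36, and the constitutive subunits lie between -0.22 and 0.34; at 3 weeks all members lie between -0.25 and 0.26.

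At 3 weeks 0 of 39 members passed the adjusted threshold between genotypes (limma; 0% of all features), and 1 had an unadjusted p under 0.05, against 7.41% of all features (3.5% in the lower direction). That was Psmd4, the ubiquitin receptor of the base, with values of 7.67, 7.41, 7.51 and 7.67 in Sel1L-deficient livers, against 7.81, 7.71 and 7.85 in wild-type livers. All Sel1L-deficient livers were lower, by a difference of -0.22 ± 0.08 (95% interval -0.40 to -0.04; adjusted p = 0.597). At 9 weeks the same gene differed by 0.02 ± 0.09. Psmd4 was the 1 member with lower and separate groups (3.53% of all features), and Psmb11, the thymus-specific beta subunit, the 1 with higher and separate groups (3.88%). In Psmb11 the lowest Sel1L-deficient liver, at 2.943, was barely above the highest wild-type liver, at 2.940, and both were below the array medians. The 30 constitutive subunits ranged from -0.22 to 0.11, with 16 above 0 and 14 below.

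The difference of the genotype effect between ages passed the adjusted threshold for 0 of 39 members (limma; 0% of all features). Psmd8 was the 1 member with an unadjusted p under 0.05, against 9.73% of all features (5.18% in the higher direction), and its difference was 0.29 ± 0.12 (adjusted p = 0.481). With age in wild-type livers, 0 of 39 members passed, against 1.89% of all features, and the 2 with an unadjusted p under 0.05 were Psmb8 and Psmb9, both higher at 9 weeks (13.6% of all features, 6.33% in that direction). The groups were apart for Psmb8, which was higher at 9 weeks (8.46% of all features), and for Psmd9 and Psmd4, which were lower (9.38%). With age in Sel1L-deficient livers, 0 of 39 passed, against 0.155% of all features, and the 2 with an unadjusted p under 0.05 were Psmd8 and Psmd13, both higher at 9 weeks (10.1% of all features, 5.19% in that direction). Psmd8 differed by 0.23 ± 0.08 between these ages (adjusted p = 0.364), and it was the 1 member with separate groups, higher at 9 weeks (4.67% of all features).

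The members also differed in how much they varied between livers of 1 group. The pooled within-group SD of the 30 constitutive subunits had a median of 0.106, from 0.0535 in Psmb6 to 0.189 in Psmd14, against a median of 0.177 over all features. Psmb10, Psmb8 and Psmb9 had SDs of 0.212, 0.247 and 0.308, which ranked 36, 37 and 38 among the 39 members. Psmc3ip had the highest SD, 0.491. Psma8, Psmb11 and Psmc3ip, which belong to the testis, the thymus and meiosis, averaged near or below the array medians. For 6 members the array has further features, and these did not always give the same value: a second feature of Psma5 differed between genotypes at 3 weeks by -0.39, against -0.08 for the feature used, and a dim second feature of Psmb1 by 0.28, against 0.01.

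Genes that act with the proteasome were described from lists of known function. Of 16 assembly factors and activators, 14 were measured and 0 passed between genotypes at 9 weeks (limma), with 2 (14.3%) at an unadjusted p under 0.05, near the 13.9% of all features, and a median difference of 0.06. Groups were apart and higher for 3 (Psmg2, Psmg4 and Uchl5, 21.4%), against 9.89% of all features. They were apart and lower for 1 (Psme1, 7.14%), against 8.52%. Psme1 encodes the alpha subunit of PA28, the interferon-inducible activator that opens the 20S core. It had values of 9.22, 9.08 and 9.02 in Sel1L-deficient livers, against 9.42, 9.43 and 9.25 in wild-type livers. Every Sel1L-deficient liver was lower, by -0.26 ± 0.08 (adjusted p = 0.146), whereas its partner Psme2 differed by 0.04 ± 0.12. Psmg4, an assembly chaperone of the core, differed by 0.22 ± 0.08 (adjusted p = 0.224).

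Nfe2l1, which encodes NRF1, differed by 0.12 ± 0.14 at 9 weeks and by -0.20 ± 0.13 at 3 weeks, and Nfe2l2, which encodes NRF2, by -0.05 at both ages. Of 15 genes of NRF1 and NRF2 control, 14 were measured, 0 passed at 9 weeks (limma; 2, or 14.3%, at an unadjusted p under 0.05, against 13.9% of all features), and the median was 0.09. These 2 went in opposite directions. Gclc, the catalytic subunit of the enzyme that starts glutathione synthesis, differed by -0.66 ± 0.21 (adjusted p = 0.167), and Srxn1, sulfiredoxin, by 0.48 ± 0.20 (adjusted p = 0.307).

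Of 15 listed ubiquitin genes and factors that extract or deliver ubiquitin-tagged proteins, 9 were measured (Vcp, Ufd1, Nploc4, Rad23b, Ubqln1, Ubqln2, Ubqln4, Sqstm1 and Bag6), and none of these encodes ubiquitin. All 9 were above 0 in Sel1L-deficient livers at 9 weeks, with a median of 0.18. None passed the adjusted threshold (limma; 2 at an unadjusted p under 0.05, or 22.2%, against 13.9% of all features). Groups were apart and higher for 3 of the 9 (Bag6, Rad23b and Ubqln4, 33.3%), against 9.89% of all features. Bag6 encodes a chaperone that escorts ERAD clients. It had values of 8.21, 8.18 and 8.30 in Sel1L-deficient livers, against 7.92, 7.97 and 8.03 in wild-type livers, which were apart (9.89% of all features were apart and higher), and the difference was 0.26 ± 0.08 (adjusted p = 0.162). Sqstm1, the autophagy receptor p62, had values of 9.30, 9.50 and 9.79 in Sel1L-deficient livers, against 9.05, 9.16 and 9.37 in wild-type livers. Those groups overlapped, with a difference of 0.34 ± 0.13 (adjusted p = 0.251). At 3 weeks the median of the 9 genes was -0.09.

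Most listed genes of antigen presentation and interferon signalling lay on the same side as the immunosubunits at 9 weeks. Of 26 listed, 22 were measured. They averaged 6.74 to 7.02 per liver in Sel1L-deficient livers, against 6.83 to 7.52 in wild-type livers, and these ranges overlapped. Of the 22 genes, 20 were below 0, with a median of -0.38. The 2 above 0 were Usp18 and Isg15. Usp18 had values of 7.23, 6.62 and 7.24 in Sel1L-deficient livers, against 6.21, 7.11 and 6.79 in wild-type livers. Groups overlapped in both, and also in Irf7, Irf9, Ifit1 and Oasl2, which were below 0. None of the 22 passed the adjusted threshold (limma; 5 at an unadjusted p under 0.05, all lower, or 22.7%, against 6.04% of all features in that direction), and 8 had separate groups, all lower, which is 36.4% of the 22, against 8.52% of all features. Without wild-type replicate 2 the median was -0.23. At 3 weeks the median was 0.06, with 14 above 0 and 8 below, and -0.035 without Sel1L-deficient replicate 3. With age in wild-type livers 19 of 22 were above 0, with a median of 0.32.

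Nlrc5, the transactivator of MHC class I genes, had values of 6.55, 6.86 and 6.73 in Sel1L-deficient livers at 9 weeks, against 7.10, 7.71 and 7.31 in wild-type livers. The groups were apart, and the difference was -0.66 ± 0.23 (limma, adjusted p = 0.202). Tap1 had values of 6.39, 6.47 and 6.46 in Sel1L-deficient livers, against 6.61, 7.48 and 6.87 in wild-type livers. All Sel1L-deficient livers were lower, with a difference of -0.55 ± 0.33 (adjusted p = 0.509). Without wild-type replicate 2 the difference was -0.30 for Tap1 (adjusted p = 0.808) and -0.49 for Nlrc5 (adjusted p = 0.442).

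Erap1, the aminopeptidase that trims peptides for MHC class I, had values of 7.83, 7.65 and 7.64 in Sel1L-deficient livers at 9 weeks, against 7.92, 8.19 and 8.03 in wild-type livers. It was lower in all 3 Sel1L-deficient livers, by -0.34 ± 0.09 (limma, adjusted p = 0.117). H2-K1, an MHC class I heavy chain, had values of 9.90, 9.95 and 10.07 in Sel1L-deficient livers, against 10.17, 10.31 and 10.24 in wild-type livers. The groups were apart, with a difference of -0.26 ± 0.08 (adjusted p = 0.139). H2-K1 was also the 1 gene of the list that passed with age in wild type, where it rose by 0.53 ± 0.08 (adjusted p = 0.00703). B2m, the light chain of MHC class I, differed by -0.13 ± 0.06 between genotypes at 9 weeks (adjusted p = 0.391).

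Irf1, a transcription factor induced by interferon gamma that activates immunoproteasome genes, had values of 5.87, 5.83 and 5.72 in Sel1L-deficient livers at 9 weeks, against 6.32, 6.65 and 6.23 in wild-type livers. At 3 weeks its values were 6.19, 6.08, 7.52 and 6.26 in Sel1L-deficient livers, against 6.06, 5.80 and 5.76 in wild-type livers. The order of the genotypes was opposite at the 2 ages, and Sel1L-deficient replicate 3 of 3 weeks stood far above the rest. The differences were -0.59 ± 0.31 at 9 weeks (limma, adjusted p = 0.429) and 0.64 ± 0.29 at 3 weeks (adjusted p = 0.669), and the difference between them was -1.23 ± 0.42 (adjusted p = 0.394). Without that replicate they were 0.30 at 3 weeks (adjusted p = 0.894) and -0.90 for the difference between ages (adjusted p = 0.282). The same liver was the highest of its group in Tap1 (7.53) and Nlrc5 (7.37). Of the 3 immunosubunits it was the highest in Psmb9 (6.48), and replicate 1 was in Psmb8 and Psmb10.

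**Figure D4:**
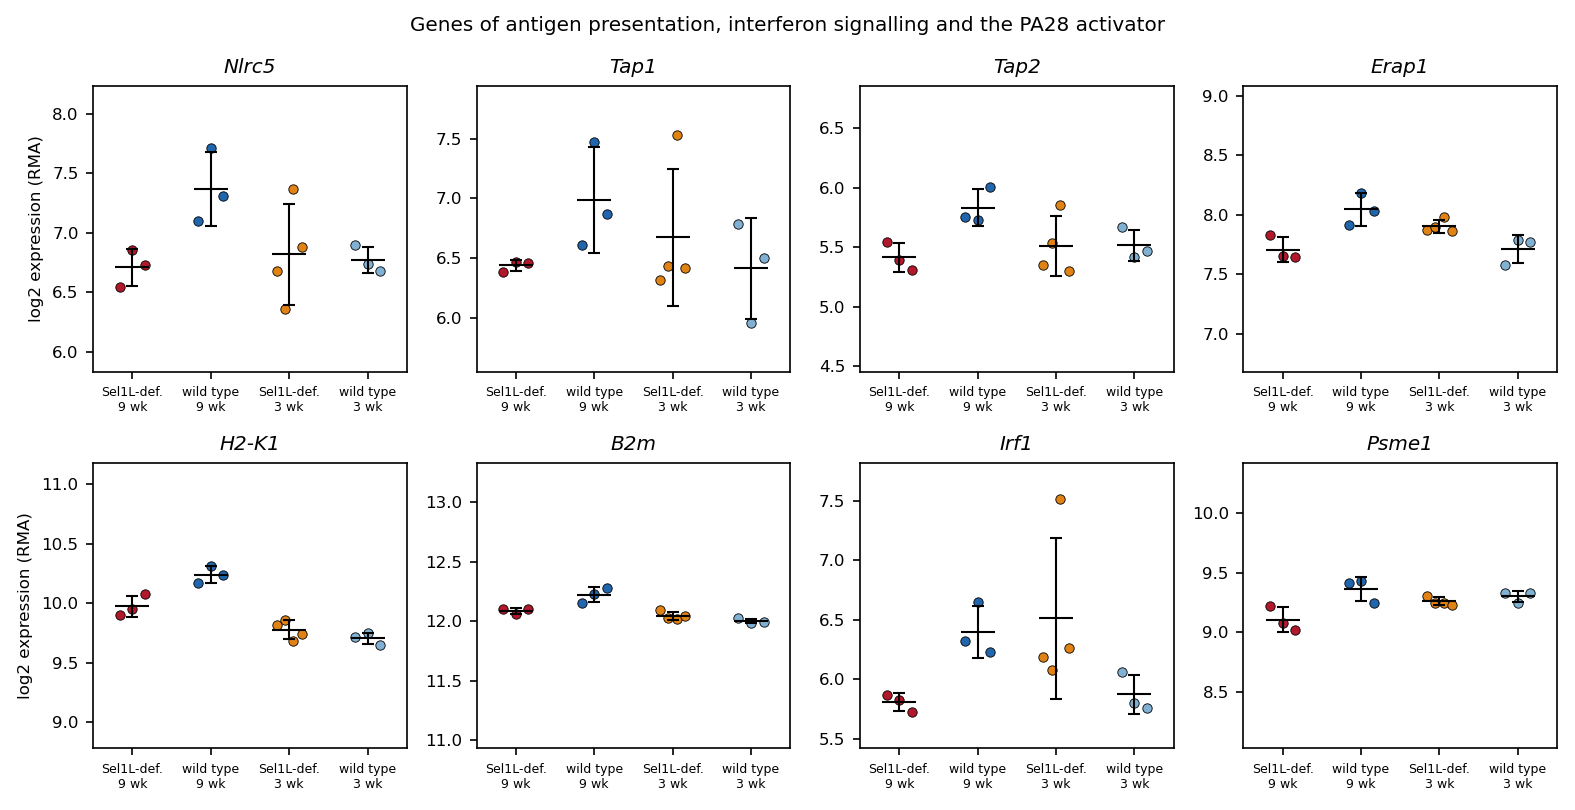
Log2 expression (RMA) in each liver of the 4 groups for genes of antigen presentation and interferon signalling and for Psme1, an activator subunit of the proteasome; points are livers, and bars are means with SD (n = 3, or 4 for Sel1L-deficient livers at 3 weeks), on axes of equal height. At 9 weeks each of the 8 genes is lower in all Sel1L-deficient livers than in all wild-type livers, and at 3 weeks Irf1 and Tap1 are highest in Sel1L-deficient replicate 3. Of the 22 measured genes of the antigen presentation and interferon list, only 8 had separate groups at 9 weeks. The genes shown from that list are all among them, and the overlapping ones are not shown. Psme2, the partner of Psme1, is not shown either.

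In whole liver, fewer cells of a type and less RNA per cell cannot be told apart, and the immunoproteasome is also made by immune cells. The lymphocyte markers, 15 of 16 measured, averaged 3.19 to 3.41 per liver in Sel1L-deficient livers at 9 weeks, against 3.40 to 3.66 in wild-type livers. These averages are below the array medians in every liver, and 13 of 15 markers were below 0, with a median difference of -0.13 and 0 passing (limma; 2 at an unadjusted p under 0.05, or 13.3%, against 13.9% of all features). Cd4, a T-cell coreceptor, differed by -0.57 ± 0.17 (adjusted p = 0.141), and Cd79a, a B-cell receptor chain, by -0.80 ± 0.32 (adjusted p = 0.287). Wild-type replicate 2 of 9 weeks was the highest of all 13 livers in this list (3.66), as it was in each immunosubunit. It was the highest as well in the antigen presentation and interferon list (7.52). The part of the lymphocyte markers in the immunosubunit differences was not tested.

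The monocyte, neutrophil and leukocyte markers (14 of 16 measured) averaged 4.98 to 5.62 in Sel1L-deficient livers at 9 weeks, against 5.29 to 5.71 in wild-type livers, with a median difference of -0.11, which was 0.21 without Sel1L-deficient replicate 1. Wild-type replicate 2 of 9 weeks was again the highest of all 13 livers, at 5.71. The Kupffer cell and macrophage markers (13 of 13 measured) averaged 6.61 to 7.79 in Sel1L-deficient livers, against 7.10 to 7.56 in wild-type livers, with a median difference of 0.06. The highest of these wild-type livers was replicate 2, at 7.56. Sel1L-deficient replicate 1 was the lowest of all livers in the Kupffer cell list, at 6.61, whereas replicates 2 and 3, at 7.79 and 7.76, were above all 3 wild-type livers of that age. Without replicate 1 all 13 Kupffer cell markers were above 0, with a median of 0.40. In the same fit the immunosubunit differences at 9 weeks were -0.78 for Psmb8, -0.71 for Psmb9 and -0.47 for Psmb10, against -0.80, -0.64 and -0.36 with it. At 3 weeks all 13 Kupffer cell markers were below 0 in Sel1L-deficient livers, with a median of -0.35. Of these, 8 had separate, lower groups (61.5%, against 3.53% of all features). The 3 immunosubunits were below 0 as well, with a median of -0.11, and their groups overlapped between genotypes. With age in wild type, 7 of the 14 monocyte, neutrophil and leukocyte markers were above 0 and 7 below, with a median of 0.06. The 3 that passed, against 1.89% of all features, were the MHC class II genes H2-Aa, H2-Ab1 and H2-Eb1. They rose by 1.41, 1.54 and 1.38 (limma, adjusted p = 0.0301, 0.0245 and 0.0277), beside the higher Psmb8 and Psmb9 values. In Sel1L-deficient livers the same 3 genes differed with age by 1.04, 1.17 and 1.05 (limma, adjusted p = 0.172, 0.138 and 0.154), beside the differences of 0.03 in Psmb8 and in Psmb9. The part of the leukocyte and Kupffer cell markers in the immunosubunit values was not tested.

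The erythroid markers (5 of 10 measured) averaged 3.48 to 3.72 in Sel1L-deficient livers at 9 weeks, against 3.83 to 4.07 in wild-type livers. These ranges were apart, and all 5 markers were below 0 with a median of -0.19. Groups were separate and lower for 2 of the 5 markers (40%), against 8.52% of all features. None passed (limma), and 1 had an unadjusted p under 0.05, or 20%, against 13.9% of all features. That was Alas2, the first enzyme of heme synthesis in red cell precursors, at -1.08 ± 0.33 (adjusted p = 0.154). At 3 weeks all 5 were below 0 as well, with a median of -0.41. The hepatocyte markers (9 of 12 measured) averaged 12.29 to 12.42 in Sel1L-deficient livers at 9 weeks, against 12.41 to 12.50 in wild-type livers, with 7 below 0, a median of -0.12 and 0 passing (limma; 2 at an unadjusted p under 0.05, or 22.2%, against 13.9% of all features). The part of these lists in the immunosubunit values was not tested.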

How the data were processed

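The deposited values are log2 expression per array feature, made by the authors with RMA, per the submitters' processing notes; its software, version and annotation build are not given in the sources used here. No further normalisation was applied. Feature symbols came from the platform annotation: of 35556 features, 21218 have 1 symbol, 1881 have several and 12457 are not listed. All 39 members matched RefSeq by gene number. A mean per group was fitted to every feature over all 13 livers with limma 3.58.1 in R 4.3.3 (eBayes, two-sided, Benjamini-Hochberg over all features, adjusted p under 0.05), after the scripts were tested on simulated data. The members, gene lists and tests were chosen with earlier results of these data known. Named are the 6 catalytic subunits, the 4 members of smallest p per direction and comparison, and the list genes of smallest p with a few fixed ones; Psmd14, Psmd2, Psma8, Psmb3, Alb and the second features of Psma5 and Psmb1 were named after their values were seen. The labels call replicates separate mice; both 9-week livers titled replicate 3 carry the number 4 in their array descriptions, and titles were used. Same-numbered livers were not correlated (r of -0.011 to 0.071 between deviations at 9 weeks and 0.0028 to 0.058 at 3 weeks), so numbers were not taken as pairs. Alternatives covered the array position code and replicate number as blocks, trend and robust priors, array weights, quantile and median scaling, feature filters, features averaged per gene, fits on 2 groups, and each liver left out. The number of arrays limits the precision.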

Additional observations from a re-analysis of the deposited data

Results flagged for a closer look

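Of 142 genes examined in the 4 Sel1L-deficient livers of 3 weeks, 11 had 1 liver whose gap to the next was most of the group's range (Dixon's criterion), where chance gives about 5%. The other groups hold 3 livers and were not examined. Replicate 3 was high in the interferon-related genes Tap1 (7.53), Irf1 (7.52) and Irf9 (7.06) and in the bile duct marker Sox9 (5.80). Replicate 2 was low in the base subunit Psmd2 (8.28) and in Psmf1 (7.65), an inhibitor of the proteasome, and high in the neutrophil genes S100a9 (4.34) and S100a8 (3.20). Replicate 1 was low in Gclc (9.26) and high in Psme3 (8.10), which encodes PA28 gamma, and replicate 4 was high in Csf1r (7.99), a macrophage receptor. Psmd2 is the single proteasome member in this group. No difference of the genotype effect between ages passed the adjusted threshold for any member or list gene.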

How the results depend on the processing

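Between genotypes at 9 weeks, 0 of 39 members passed in the fit over all livers, 2 passed with array weights (Psmb8 and Psmd8), 1 with only features of 1 symbol tested and 1 with only features above the array median on at least 3 arrays tested (Psmb8 in both; 37 members kept; fewer features were tested). In the other comparisons and alternatives the count stayed 0, and so it did when any 1 liver was left out. The replicate block left 0 of 39 members past the threshold, with Psmb8 at an adjusted p of 0.122 and Psmd8 at 0.0945; the numbers were not taken as pairs. Over all features, 539 passed at 9 weeks, against 1 when only the 2 groups were fitted, 184 with the replicate block, 1106 with array weights, and 18 to 1178 when 1 liver was left out. Of the class medians, 245 moved by less than the spread between livers under alternatives other than leaving out a liver, and 322 when a liver was left out. The 3 that moved, each with 1 liver left out, were the 19S base between genotypes at 9 weeks (-0.0063 to 0.134, the highest without wild-type replicate 3 of 9 weeks) and, without wild-type replicate 2 of 9 weeks, the constitutive beta ring in the difference of effects (-0.11, in a range up to 0.068) and with age in wild type (0.073, in a range down to -0.049). Genes with a difference larger than its SE that turned sign when 1 liver was left out were S100a8 (-0.42 to 0.025, the highest without wild-type replicate 2) and Timd4 (-0.40 to 0.052, the highest without Sel1L-deficient replicate 1) at 9 weeks and Apob (-0.019 to 0.30, the lowest without wild-type replicate 1) at 3 weeks. The cause of these changes was not tested. In 7570 gene results under an alternative, 73 had another sign. Results that passed in the fit over all livers lost the adjusted threshold 57 times with 1 liver left out and 19 times under the other alternatives. Results that had not passed gained it 11 and 16 times. Psmb10 was 0.16 higher with age in wild type and ran from -0.03 to 0.27 with 1 liver left out. With 3 or 4 livers a group and 13 arrays in all, differences of the size seen in most constitutive subunits could not be told from 0.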

Other observations

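The same comparisons hold values for genes of other liver cells that sit beside the proteasome results. With age in wild-type livers, several markers of sinusoidal endothelium fell at 9 weeks: Lyve1, a hyaluronan receptor, differed by -1.14, Oit3 by -0.56 and Stab2, a scavenger receptor, by -0.44. The macrophage receptor Marco differed by -2.09, the stellate cell gene Reln by -0.72 and the red cell anion exchanger Slc4a1 by -1.90. Each of these 6 passed the adjusted threshold (limma), as 1.89% of all features did, and no other marker of their lists passed. Below 0 were 8 of 10 endothelial, 13 of 13 Kupffer cell, 9 of 10 stellate cell and 4 of 5 erythroid markers. The medians of these lists were -0.28, -0.24, -0.40 and -0.08. Hmox1, heme oxygenase 1, had values of 7.55, 7.84, 7.11 and 7.71 in Sel1L-deficient livers at 3 weeks, against 8.28, 8.68 and 8.05 in wild-type livers. All Sel1L-deficient livers were lower, by a difference of -0.79 ± 0.24 (adjusted p = 0.484), and at 9 weeks the difference was 0.08 ± 0.25.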
